A study of Mus musculus with 8 samples.

Results

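The comparison described here is that of H3K27me3 at gene promoters in Ezh1/Ezh2 double KO naive CD4+ T cells with the same mark in WT cells. Its members are the promoter windows of 6 kb, centred on transcription start sites, whose signal was 1 or more in the higher of the 2 libraries. Of 18603 windows, 17976 met this rule. The other 627 were not compared, and 534 of them were listed at 0 in both libraries, 9 HoxC windows among them.

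The series profiled H3K27me3 by ChIP-seq and RNA by RNA-seq in CD4+ T cells of the naive type, isolated from the lymph nodes of mice of the 129SV/B6 strain, with 1 library per genotype and assay. The double KO combined a constitutive Ezh1-/- with a floxed Ezh2 (fl/fl) deleted by a CD4-cre transgene, in which Cd4 regulatory sequence drives the cre recombinase during T cell development. The Ezh2 KO had the floxed Ezh2 and CD4-cre, and the Ezh1 KO had Ezh1-/- alone. The labels give no allele and no cre for WT, so the double KO and WT differed in cre as well as in both genes. The question posed is what remains of the mark when both PRC2 enzymes are targeted.

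H3K27me3 is trimethylation of lysine 27 of histone H3, placed by the Polycomb complex PRC2 through either of its alternative catalytic subunits, Ezh2 and Ezh1. It marks promoters of silent genes, above all those of developmental regulators with CpG-rich promoters, and PRC1 complexes can bind it through their Cbx subunits. In T cells it is known to cover genes of other blood lineages and of effector programmes that a naive cell does not use.

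Single promoters differed in sequence as widely as in signal, and 7 of them are shown because the results below turn on them. Each sequence is the 200 bases upstream of the window centre in mm9, read 5′ to 3′ on the gene's strand, with CpG dinucleotides in capitals. Hes1 (chr16:30064270-30064469, plus strand, 27 CpG), Pik3ap1 (chr19:41459609-41459808, minus strand, 21 CpG) and H2-Ab1 (chr17:34399985-34400184, plus strand, 3 CpG) belong to windows with less H3K27me3 in the double KO. Tcf7 (chr11:52096682-52096881, minus strand, 32 CpG), Bcl11b (chr12:109241813-109242012, minus strand, 5 CpG), Cd3e (chr9:44817674-44817873, minus strand, 6 CpG) and Cd4 (chr6:124838240-124838439, minus strand, 6 CpG) belong to windows with more.
Hes1: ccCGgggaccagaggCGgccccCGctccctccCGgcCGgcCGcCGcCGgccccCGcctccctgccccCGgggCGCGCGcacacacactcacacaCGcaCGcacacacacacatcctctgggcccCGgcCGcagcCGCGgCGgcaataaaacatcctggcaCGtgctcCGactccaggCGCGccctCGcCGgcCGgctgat
Pik3ap1: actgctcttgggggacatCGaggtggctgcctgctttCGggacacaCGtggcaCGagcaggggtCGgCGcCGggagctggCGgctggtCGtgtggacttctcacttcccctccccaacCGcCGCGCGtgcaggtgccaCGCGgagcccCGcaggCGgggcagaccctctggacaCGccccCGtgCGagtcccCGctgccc
H2-Ab1: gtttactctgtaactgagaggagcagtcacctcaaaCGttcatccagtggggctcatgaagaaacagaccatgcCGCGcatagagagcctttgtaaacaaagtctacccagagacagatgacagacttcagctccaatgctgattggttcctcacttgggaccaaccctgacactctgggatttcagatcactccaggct
Tcf7: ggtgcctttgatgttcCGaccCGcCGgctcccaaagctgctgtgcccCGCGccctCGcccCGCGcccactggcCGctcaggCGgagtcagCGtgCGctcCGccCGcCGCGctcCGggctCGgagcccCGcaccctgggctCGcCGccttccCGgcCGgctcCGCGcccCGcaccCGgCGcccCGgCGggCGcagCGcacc
Bcl11b: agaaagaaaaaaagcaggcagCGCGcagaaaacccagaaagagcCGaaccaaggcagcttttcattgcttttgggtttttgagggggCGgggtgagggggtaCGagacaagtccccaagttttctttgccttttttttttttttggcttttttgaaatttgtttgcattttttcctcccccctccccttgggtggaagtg
Cd3e: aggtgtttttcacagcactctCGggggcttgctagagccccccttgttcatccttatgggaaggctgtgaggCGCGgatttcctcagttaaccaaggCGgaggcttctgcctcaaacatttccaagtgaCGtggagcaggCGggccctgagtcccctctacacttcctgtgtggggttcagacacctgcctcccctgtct
Cd4: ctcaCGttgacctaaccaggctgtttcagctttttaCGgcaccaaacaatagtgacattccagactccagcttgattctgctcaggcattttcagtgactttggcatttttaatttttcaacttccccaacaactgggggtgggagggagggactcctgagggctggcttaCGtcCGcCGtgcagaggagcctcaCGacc
GC content was 77% for Hes1, 72.5% for Pik3ap1 and 49.5% for H2-Ab1, against 81% for Tcf7, 46.5% for Bcl11b, 57.5% for Cd3e and 51.5% for Cd4. In these 200 bases, windows with less of the mark and windows with more of it thus each included CpG-dense and CpG-poor promoters. Bcl11b, with 5 CpG here, was CpG-dense over the longer central stretch compared further below. Its ratio of observed to expected CpG there was 0.790, above the 0.571 of Pik3ap1. Hes1 (0.810) and Tcf7 (0.901) stayed CpG-dense over that stretch, and H2-Ab1 (0.285) and Cd4 (0.293) stayed CpG-poor.

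The window signal is coverage per M reads summed over bins of 25 bp. It is relative to the reads of each library, so a change shared by all windows would not show in it. At the depths implied by the files, 88.2 M reads for the double KO and 79.7 M for WT, a median window held 205 and 184 read equivalents. Intervals given below cover counting error only (exact Clopper-Pearson, 95%). With 1 library a side there is no SD and no test, and variation between animals and between preparations cannot be told apart from genotype. Ezh1 RNA was 0.194 in the double KO and 1.05 in WT, in units of exon peak coverage per M reads. Ezh2 RNA was 1.17 in the double KO and 0.925 in WT, so RNA gave no check of the Ezh2 deletion. The mark at the 2 targeted promoters was 17.01 in the double KO and 17.24 in WT for Ezh1, and 10.2 and 12.5 for Ezh2.

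H3K27me3 in the double KO library stood close to the WT level over most promoters. The median window stood at 14.1 in the double KO and 13.9 in WT, and the median log2 ratio of double KO over WT was 0.05. The 1st and 99th percentiles of the ratio were -0.67 and 0.60, and 97.4% of windows lay within 1.5-fold. Only 25 windows (0.139%) were at least 2-fold lower in the double KO and 6 (0.0334%) at least 2-fold higher. At 1.5-fold these counts were 266 lower (1.48%) and 205 higher (1.14%), at 254 and 192 separate loci. The split depends on scaling. With marked windows set equal it was 55 lower and 2 higher at 2-fold and 508 and 61 at 1.5-fold, and with median of ratios it was 36 and 4 at 2-fold and 341 and 134 at 1.5-fold. Only 12.4% of the windows were marked in WT, as defined below, so counts over all windows mostly describe windows with little of the mark. Among the 2231 marked windows, without rescaling, 6 were at least 2-fold lower and 0 higher. At 1.5-fold, 29 marked windows (1.30%) were lower and 8 (0.359%) higher.

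**Figure D1:**
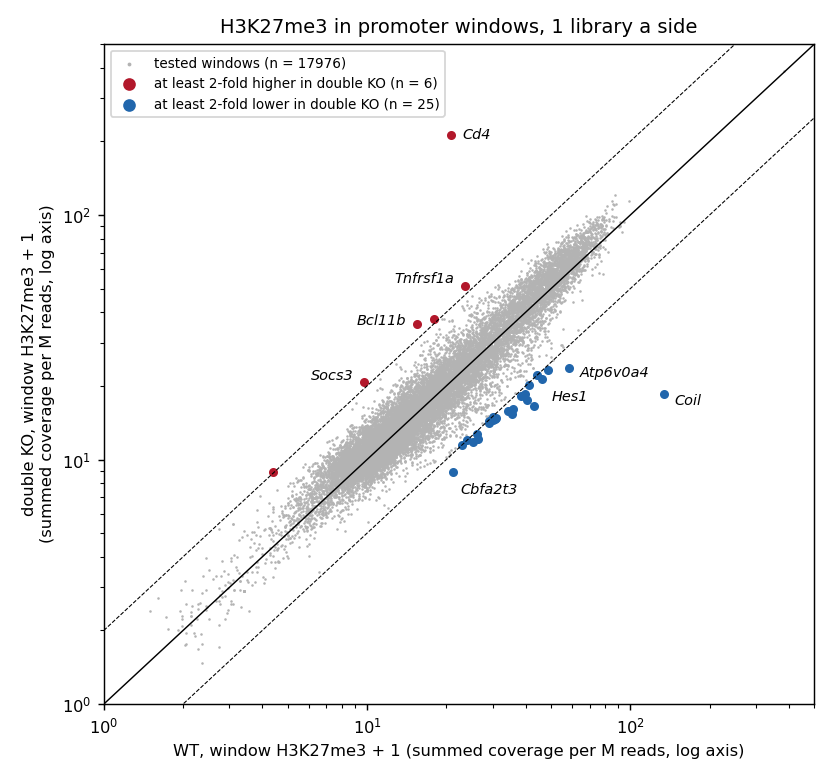
H3K27me3 of 17976 promoter windows in the double KO (vertical log axis) and in WT (horizontal log axis), as summed coverage per M reads plus 1, 1 library each. The solid line marks equality and the dashed lines 2-fold. Blue points are the 25 windows at least 2-fold lower in the double KO, red points the 6 at least 2-fold higher, and Coil and Cd4 lie farthest from the line.

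Promoters that carry much of the mark had slightly more in the double KO than in WT. Marked windows, defined by a WT signal of at least 4 times the background median, numbered 2231 (12.4% of those compared). Their median was 56.9 in the double KO, 47.5 in the Ezh2 KO, 64.2 in the Ezh1 KO and 51.5 in WT. Of the marked windows 1642 (73.6%) were higher in the double KO than in WT, against 59.6% of all windows compared. Background windows, which belong to the top WT RNA tertile, had medians of 10.5 in the double KO and 10.2 in WT. Because marking used the WT library, the ratio was also ordered by the mean of the Ezh1 KO and Ezh2 KO windows, which does not enter it. The median log2 ratio was 0.01 at a mean of 20 to 30, 0.11 at 40 to 60, 0.19 at 60 to 80 and 0.25 at 80 or more. The lower tail was widest at intermediate levels. At a mean of 20 to 30, 95 of 2339 windows (4.06%) were at least 1.5-fold lower in the double KO, while at 60 to 80 the share was 0.140%. Setting marked windows equal between the libraries, with a factor of 1.10, took the median of marked windows to -0.02, so the direction at marked promoters depends on the scaling.

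**Figure D2:**
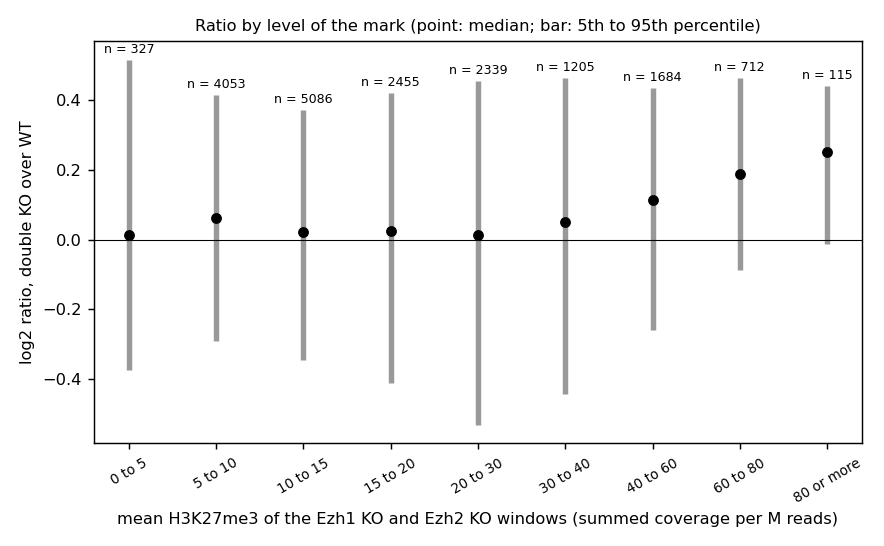
Log2 ratio of H3K27me3, double KO over WT, in classes of the mean signal of the Ezh1 KO and Ezh2 KO windows (horizontal axis, summed coverage per M reads). Points are medians, bars run between the 5th and 95th percentiles, and n is the number of windows. Medians rise to 0.25 in the class at 80 or more, and the lower bar reaches farthest at 20 to 30; setting marked windows equal lowers all ratios.

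Developmental regulators, the classical Polycomb targets, had more coverage per M reads in the double KO than in WT at most windows. Over 90 windows of developmental transcription factors the medians were 71.8 in the double KO and 55.7 in WT. They were 55.9 in the Ezh2 KO and 76.9 in the Ezh1 KO. The Ezh1 KO was above WT in all 90 windows and the Ezh2 KO in 43. The double KO was above WT in 87, where it was in 59.6% of all windows. The median log2 ratio was 0.35, with 5 windows at least 1.5-fold higher, where 1.14% of all windows were, and 0 lower. Pax2, which patterns kidney and eye, stood at 64.2 in the double KO, 41.9 in the Ezh2 KO, 67.8 in the Ezh1 KO and 40.8 in WT. Lhx2, a forebrain factor with the highest WT value of the list, stood at 88.9 in the double KO and 90.3 in WT. Sox3 had the largest ratio of the list, at 29.0 in the double KO and 16.8 in WT, and 3 windows of the list were lower in the double KO.

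The Hox genes, which specify position along the body axis, had 30 windows with signal. Their medians were 83.2 in the double KO, 72.6 in the Ezh2 KO, 87.1 in the Ezh1 KO and 68.6 in WT. Of the 30 windows 27 were higher in the double KO than in WT, against 59.6% of all windows, and none passed 1.5-fold in either direction. Hoxa10 stood at 110.2 in the double KO and 84.8 in WT, and Hoxb7 at 64.5 and 44.9. Many Hox windows lie in the same clusters, so the 30 windows represent 23 separate loci. Over 48 windows of genes of the Wnt, Hedgehog and BMP pathways the medians were 50.8 in the double KO and 41.8 in WT. They were 37.9 in the Ezh2 KO and 60.2 in the Ezh1 KO. The double KO was above WT in 44 of the 48, against 59.6% of all windows, also with 0 past 1.5-fold. The BMP family ligand gene Gdf7 stood at 80.4 in the double KO and 56.9 in WT. Under every alternative scaling the medians of these 3 lists stayed above 0, and the lowest were 0.21, 0.13 and 0.12.

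CDK inhibitor and PRC2 genes lay near WT. Among 6 CDK inhibitor windows the median log2 ratio was 0.00, or -0.14 with marked windows set equal, and none passed 1.5-fold. Cdkn2b, an inhibitor of Cdk4 and Cdk6 encoded beside Cdkn2a, stood at 71.2 in the double KO and 74.4 in WT. The 10 PRC2 subunit windows had medians of 9.44 in the double KO and 8.78 in WT, near the background level of both libraries, and a median log2 ratio of 0.06 that turned to -0.07 with marked windows set equal. Imprinted genes (33 windows, median log2 ratio 0.13), collagen and laminin genes (39, 0.13) and ribosomal protein genes (57, 0.10) had few or no windows past 1.5-fold, with Lamc1 as the single one among these 3 lists. The first 2 of these medians fell just under 0, to -0.00542 and -0.00488, with marked windows set equal, and that of the ribosomal list to -0.04.

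The 25 windows at least 2-fold lower in the double KO lay on 16 chromosomes at 25 separate loci. They came mostly from the middle of the range, with a median of 14.4 in the double KO, 20.9 in the Ezh2 KO, 32.0 in the Ezh1 KO and 33.2 in WT. Only 6 of them were marked in WT. In 24 of 25 the double KO was lowest, then the Ezh2 KO, then the Ezh1 KO. The part of this order that does not use the double KO is not particular to them: the Ezh2 KO was below the Ezh1 KO in 94.7% of all 4649 windows at 20 to 50 in WT. The full order was seen in 14.9% of those windows, but the double KO was used to choose the 25.

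**Figure D3:**
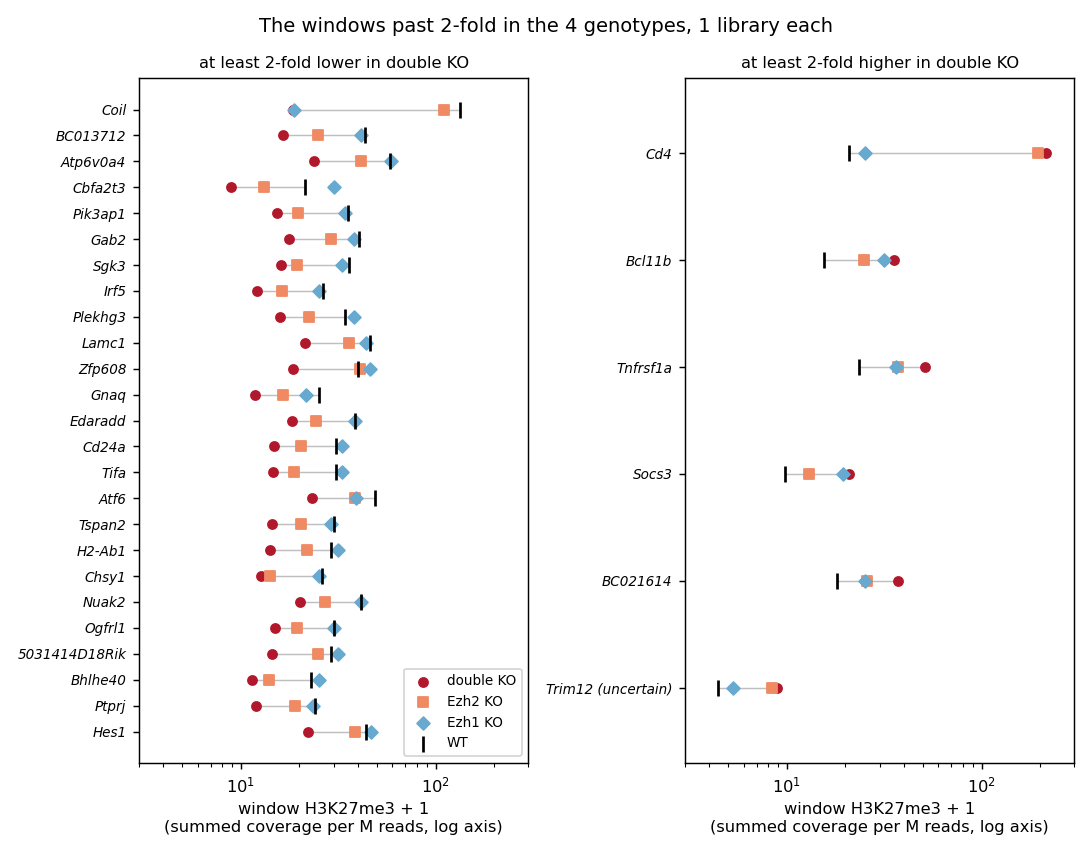
H3K27me3 in the double KO, Ezh2 KO, Ezh1 KO and WT libraries (summed coverage per M reads plus 1, log axis) for the 25 windows at least 2-fold lower in the double KO (left) and the 6 at least 2-fold higher (right), 1 library per genotype. At Coil the Ezh1 KO lies near the double KO, and at Cd4 the Ezh2 KO lies near the double KO. The selection used the double KO and WT values.

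Coil, which encodes the Cajal body scaffold coilin, had the largest difference on the lower side. Its window stood at 17.5 in the double KO, 110.0 in the Ezh2 KO, 17.7 in the Ezh1 KO and 132.8 in WT, a log2 ratio of -2.85 (interval -3.12 to -2.73). The low values belonged to the 2 genotypes with Ezh1-/-, and the window lies 12.3 Mb from Ezh1 on chromosome 11. Its RNA was 0.375 in the double KO and 0.502 in WT. Over the 380 windows within 10 Mb of Ezh1 the median log2 ratio was 0.03 and 0 windows passed 2-fold. Within 10 Mb of Ezh2 lay 184 windows with a median of 0.06, and 1 of them passed 2-fold. That window was Atp6v0a4, a subunit of the proton-pumping V-ATPase, at 22.7 in the double KO, 40.3 in the Ezh2 KO, 58.2 in the Ezh1 KO and 57.7 in WT.

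Pik3ap1, Gab2, Cbfa2t3 and Cd24a were also past 2-fold on the lower side. Pik3ap1, the B cell adaptor for PI3 kinase, stood at 14.4 in the double KO, 18.7 in the Ezh2 KO, 33.4 in the Ezh1 KO and 34.6 in WT. Gab2, a scaffold for PI3 kinase and Shp2, stood at 16.6, 27.9, 37.2 and 39.5 in the same 4 genotypes. Cbfa2t3, a transcriptional corepressor of blood progenitors, stood at 7.87 in the double KO, 12.1 in the Ezh2 KO, 29.0 in the Ezh1 KO and 20.2 in WT. At all 3 genes the double KO was lowest and the Ezh2 KO next. Cd24a, a surface glycoprotein of immature thymocytes and B cells, stood at 13.8 in the double KO, 19.3 in the Ezh2 KO, 32.0 in the Ezh1 KO and 29.9 in WT. Cd24a RNA was 0.831 in the double KO and 0.316 in WT.

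Of 22 windows of Notch receptors, ligands and targets, Hes1 alone passed 2-fold. Hes1, a transcriptional repressor induced by Notch, stood at 21.1 in the double KO, 37.7 in the Ezh2 KO, 45.8 in the Ezh1 KO and 43.2 in WT (log2 ratio -1.001, interval -1.24 to -0.83). Hes1 was on the limit itself, and its RNA was 0.0550 in the double KO and 0.0144 in WT, low in both. Other members varied around WT. The ligand gene Dll1 stood at 59.0 in the double KO and 63.5 in WT, Hey2 at 69.7 and 70.8, and the median log2 ratio of the list was 0.08, or -0.06 with marked windows set equal. Dtx1, a modulator of Notch signalling, went the other way, with 18.4 in the double KO and 10.3 in WT, and Lfng, a glycosyltransferase that modifies Notch receptors, stood at 13.7 and 8.88.

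Il9 and the other Th2 and Th9 genes also varied by gene. Il9, a cytokine gene silent in naive cells, fell just short of 2-fold at 27.9 in the double KO, 37.4 in the Ezh2 KO, 55.9 in the Ezh1 KO and 54.5 in WT. Il13 stood at 25.9 in the double KO and 18.6 in WT, and the 17 Th2 and Th9 windows had a median log2 ratio of 0.21. Just outside the limit on the lower side among marked windows, with Il9, were Dennd5a (24.4 in the double KO and 49.8 in WT) and Rnf216 (25.4 and 48.9). Just outside it on the higher side were Trerf1 (36.4 and 18.2) and Tcf7. Bhlhe40, a repressor induced by T cell receptor signals, was the single Th1 list member past 2-fold, at 10.5 in the double KO and 22.0 in WT.

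The summed signal and the highest bin of a window did not always move together. In Plekhg3 the highest bin was 0.143 in the double KO and 0.453 in WT, a larger fall than that of the whole window (log2 ratio -1.60 with a pseudocount of 0.01, and -1.11 for the window). Atf6, a transcription factor of the endoplasmic reticulum stress response, fell to 22.3 in the double KO, against 47.7 in WT, over the whole window, while its highest bin was 0.420 in the double KO and 0.447 in WT. In Atf6 the highest point of the signal was thus near the WT height while the sum over the window was not. Bmpr1b, a BMP receptor gene, showed the reverse, with a log2 ratio of 0.08 for the window and 0.86 for the highest bin. At a 2-fold limit and a pseudocount of 0.01 the highest bin gave 55 lower and 34 higher windows, against 25 and 6 for the summed signal.

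The Cd4 window had the largest difference on the higher side. It stood at 212.1 in the double KO, 193.5 in the Ezh2 KO, 24.1 in the Ezh1 KO and 19.9 in WT, a log2 ratio of 3.35 (interval 3.23 to 3.60). The high values belonged to the 2 genotypes with CD4-cre, a transgene that carries Cd4 regulatory sequence, and reads from the transgene and from the Cd4 locus cannot be told apart in these files. Its highest bin was 2.73 in the double KO and 0.209 in WT. Cd4 RNA was 16.3 in the double KO and 16.6 in WT. The Tnfrsf1a window lies 0.461 Mb from Cd4 and encodes a TNF receptor. It stood at 50.3 in the double KO, 36.3 in the Ezh2 KO, 35.5 in the Ezh1 KO and 22.5 in WT, so its single KO values were alike, unlike those of Cd4.

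The other windows at least 2-fold higher were Bcl11b, Socs3, BC021614 and Trim12. Bcl11b, a transcription factor required for T cell commitment, stood at 34.7 in the double KO, 23.8 in the Ezh2 KO, 30.7 in the Ezh1 KO and 14.5 in WT (log2 ratio 1.21, interval 1.02 to 1.51). Socs3, a feedback inhibitor of cytokine receptors, stood at 19.8 in the double KO, 11.9 in the Ezh2 KO, 18.4 in the Ezh1 KO and 8.77 in WT. BC021614 stood at 36.4 in the double KO, 24.6 in the Ezh2 KO, 24.3 in the Ezh1 KO and 17.01 in WT. Trim12 belongs to a near-identical family and is uncertain, at 7.87 in the double KO and 3.41 in WT. Both single KOs lay between WT and the double KO in all 6, as in 172 of the 205 windows at least 1.5-fold higher and 1588 of all 17976, but WT and the double KO were used to choose the 6. None was marked in WT, and 4 of the 6 had a WT RNA of 1 or more. Bcl11b RNA was 5.73 in the double KO and 6.62 in WT, and Socs3 RNA 4.15 and 2.58.

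Promoters of the T cell receptor complex and its signalling proteins, genes that naive CD4+ T cells transcribe, carried more H3K27me3 in the double KO. Of 31 windows, 27 were higher in the double KO than in WT, where 59.6% of all windows were. At least 1.5-fold higher were 15 (48.4%), where 1.14% of all windows passed 1.5-fold upward. Cd4 and Bcl11b, 2 of the 15, passed 2-fold. As given above, reads of the CD4-cre transgene cannot be told apart from those of the Cd4 locus, and Cd4 was kept in these counts and medians. The medians were 17.2 in the double KO, 17.0 in the Ezh2 KO, 17.4 in the Ezh1 KO and 13.9 in WT. The double KO and WT medians lay below the limit for marked windows, and the median log2 ratio was 0.53. Each single KO was above WT in 28 of the 31 windows, so the difference from WT was not particular to the double KO. With marked windows set equal the median was 0.39 and 4 windows passed 1.5-fold. The list was written with earlier results of these data known, and its members share a cell type, so this is a description of the 2 libraries. Between the single KOs, which do not enter the ratio, the median log2 ratio of Ezh2 KO over Ezh1 KO was 0.23 in this list, -0.33 in the B cell list described below and -0.10 over all windows. It was 0.11 over background windows and -0.41 over all windows at 20 to 50 in WT, so it also differed by RNA and by signal.

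Within the receptor itself, Cd3e stood at 38.4 in the double KO, 31.9 in the Ezh2 KO, 28.2 in the Ezh1 KO and 23.7 in WT. Cd3g stood at 41.2 in the double KO, 37.9 in the Ezh2 KO, 26.0 in the Ezh1 KO and 25.1 in WT, and Cd3d, whose window overlaps that of Cd3g, at 30.60, 31.44, 20.03 and 19.27 in the same 4 genotypes. Among these CD3 chains the double KO was above WT throughout, with the Ezh2 KO at or near it at Cd3d. Cd247, which encodes the zeta chain, stood at 15.3 in the double KO and 11.5 in WT.

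Downstream of the receptor, the adaptor genes Lat and Lcp2 (SLP-76) stood at 15.3 in the double KO and 9.10 in WT, and at 27.4 and 16.5. The kinase gene Fyn stood at 25.7 in the double KO, 24.1 in the Ezh2 KO, 15.6 in the Ezh1 KO and 15.2 in WT. At Fyn the Ezh1 KO lay beside WT and the Ezh2 KO beside the double KO. Lck, the kinase that starts the signal, stood at 9.17 in the double KO and 8.08 in WT, and Zap70 at 12.8 and 8.82. The costimulatory receptor gene Cd28 stood at 15.84 in the double KO and 18.96 in WT, and was 1 of 4 windows of the list that were lower.

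RNA of these genes was compared in the same genotypes. Of the 31, 9 had higher RNA in the double KO than in WT, and none of the 15 with a 1.5-fold higher window differed by 2-fold in RNA. Cd3e RNA was 7.33 in the double KO and 5.39 in WT, while Cd3g RNA was 89.9 and 108.5. Over all 17873 windows with RNA values, 42.2% had higher RNA in the double KO. The sum of RNA over the CD4 T cell markers was 123 in the double KO, 116 in the Ezh2 KO, 119 in the Ezh1 KO and 136 in WT. In a bulk sample fewer cells of a type and less RNA per cell cannot be told apart.

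Naive T cell genes had a median log2 ratio of 0.30. Of 29 windows 24 were higher in the double KO and 4 by at least 1.5-fold, where 59.6% and 1.14% of all windows were. The 4 ranged between 0 and 7 across the alternative settings. The list had medians of 15.4 in the double KO and 12.5 in WT. Tcf7, which sustains naive and memory T cells, stood at 36.4 in the double KO, 24.2 in the Ezh2 KO, 26.9 in the Ezh1 KO and 18.6 in WT, and its RNA was 13.8 in the double KO and 10.1 in WT. Its relative Lef1 stood at 54.9 in the double KO, 54.8 in the Ezh2 KO, 54.2 in the Ezh1 KO and 43.2 in WT. Lef1 was thus alike in the 3 mutants. Il7r, the receptor for the survival cytokine IL-7, stood at 23.2 in the double KO and 16.6 in WT. Foxo1, a factor of naive T cell maintenance, stood at 7.12 in the double KO and 8.81 in WT.

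SOCS genes, which encode inhibitors of cytokine signalling, and TNF receptor genes varied by gene. Of 29 windows 5 were at least 1.5-fold higher in the double KO and 0 lower, where 1.14% and 1.48% of all windows were. The median log2 ratio was 0.06, or -0.08 with marked windows set equal. Fas, the death receptor gene, stood at 18.6 in the double KO, 15.5 in the Ezh2 KO, 13.4 in the Ezh1 KO and 10.2 in WT. Tnfrsf25 stood at 31.5 in the double KO, 22.1 in the Ezh2 KO, 31.5 in the Ezh1 KO and 18.0 in WT. The 2 thus placed the single KOs differently. Cd40, a TNF receptor of B cells and dendritic cells, stood at 27.7 in the double KO and 41.0 in WT.

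Other T cell programmes lay closer to the median of all windows, with single genes on either side. Over all windows 59.6% were higher in the double KO. Of 18 regulatory T cell windows 15 were higher in the double KO (median log2 ratio 0.24), and Il2rb, a chain of the IL-2 receptor, stood at 20.2 in the double KO and 12.3 in WT. Of 14 follicular helper windows 12 were higher in the double KO (0.20), and Il6st, the shared signalling chain of IL-6 family receptors, stood at 23.3 in the double KO and 14.1 in WT. Memory and effector genes (20 windows) and Th1 genes (16 windows) both had a median of 0.01, which turned to -0.12 for each with marked windows set equal. Prdm1, which encodes the effector regulator Blimp-1, stood at 27.01 in the double KO and 39.48 in WT. Zeb2, a factor of terminal effector cells in the cytotoxic and NK list (25 windows, median 0.06, or -0.07 with marked windows set equal), stood at 21.0 in the double KO, 29.9 in the Ezh2 KO, 36.6 in the Ezh1 KO and 38.2 in WT. These examples show differences of opposite sign within related programmes.

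Outside the T cell lists, Lmo2, a factor of blood progenitors, stood at 29.0 in the double KO and 48.9 in WT, while Gata1, the erythroid factor, stood at 14.1 and 8.58. Both belong to the 23 thymocyte and progenitor windows (median log2 ratio -0.10). Ccr10, a chemokine receptor of skin and mucosal homing, stood at 27.5 in the double KO and 48.9 in WT, against a median of 0.15 for the 25 chemokine receptor windows that turned to -0.00499 in the highest bin. Th17 genes (14 windows, 0.14), stromal genes (20 windows, 0.12), erythroid genes (16 windows, 0.08) and PRC1 subunits (22 windows, 0.00) turned below 0 with marked windows set equal. Interferon-stimulated genes (36 windows) had a median of 0.15. Among PRC1 subunits Bcor stood at 6.46 in the double KO and 4.17 in WT, and Phc1 at 15.3 and 20.5.

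**Figure D4:**
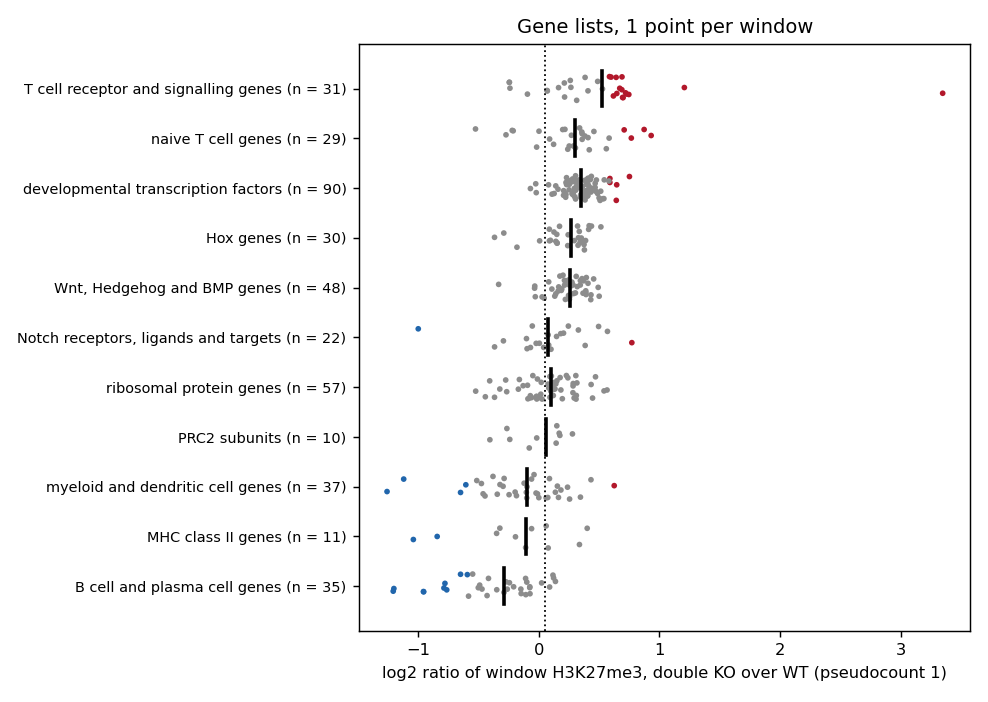
Log2 ratio of window H3K27me3, double KO over WT (pseudocount 1), for 11 gene lists, 1 point per window. Red points are at least 1.5-fold higher in the double KO, blue points at least 1.5-fold lower, black bars are list medians and the dotted line is the median of all 17976 windows. The T cell receptor list has the highest median (0.53) and the B cell list the lowest (-0.29) of those drawn; with marked windows set equal the ribosomal, Notch and PRC2 medians turn to -0.04, -0.06 and -0.07.

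B cell and plasma cell genes had less of the mark in the double KO. Of 35 windows 30 were lower in the double KO and 9 (25.7%) by at least 1.5-fold, where 1.48% of all windows passed 1.5-fold downward. Over all windows 59.6% were higher in the double KO. The medians were 12.6 in the double KO, 14.2 in the Ezh2 KO, 18.8 in the Ezh1 KO and 16.4 in WT, and the median log2 ratio was -0.29. The Ezh2 KO was above WT in 9 of the 35 windows and the Ezh1 KO in 20. The lower signal was thus not particular to the double KO. Across the alternative settings the median ranged between -0.42 and -0.06, and with marked windows set equal 14 windows passed 1.5-fold.

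Signalling genes of this list showed the largest differences. Plcg2, the phospholipase of the B cell receptor pathway, stood at 13.1 in the double KO, 15.4 in the Ezh2 KO, 30.8 in the Ezh1 KO and 26.4 in WT. Lyn, a B cell and myeloid kinase, stood at 22.0, 24.2, 37.2 and 38.5 in the same 4 genotypes, and Cr2, a receptor for complement, at 17.7, 18.3, 30.2 and 31.2. At these 3 genes the Ezh2 KO was close to the double KO. The lineage factor genes differed less. Pax5 stood at 41.3 in the double KO and 49.7 in WT, and Ebf1 at 34.6 and 42.0.

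RNA of the B cell markers was higher in the double KO, opposite in direction to these windows. The summed RNA of 7 B cell markers was 5.96 in the double KO, 3.43 in the Ezh2 KO, 2.09 in the Ezh1 KO and 1.80 in WT. All 7 were higher in the double KO than in WT, none was at 0, and single markers ranged between 0.285 and 1.13 in the double KO and between 0.0483 and 0.495 in WT. Their 7 windows were all lower in the double KO, with medians of 13.9 in the double KO and 18.3 in WT. Myeloid marker RNA summed to 1.56 in the double KO and 0.602 in WT, with 4 of its 5 markers higher in the double KO and Cd14 at 0 in WT. The CD8 T and NK cell markers summed to 4.01 in the double KO and 2.57 in WT, and the stromal markers to 3.85 and 4.38. Higher in the double KO were 4 of the 6 CD8 T and NK markers and 2 of the 4 stromal markers. Single genes made up most of some sums. Lyz2 was 1.19 in the double KO and 0.275 in WT among the myeloid markers, and Pecam1 3.77 and 4.33 among the stromal ones. The part of any of these cell types in the H3K27me3 differences was not tested.

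Class II genes of the major histocompatibility complex, which present antigen in B cells and dendritic cells, behaved unevenly. H2-Ab1 stood at 13.1 in the double KO, 20.9 in the Ezh2 KO, 30.4 in the Ezh1 KO and 28.0 in WT, and its RNA was 8.37 in the double KO and 2.45 in WT. H2-Eb2 stood at 11.72, 16.18, 20.02 and 21.84 in the same 4 genotypes. The transactivator gene Ciita went the other way, at 21.0 in the double KO and 16.4 in WT. Of 11 windows 7 were lower in the double KO, while 59.6% of all windows compared were higher. Of 37 myeloid and dendritic cell windows 25 were lower in the double KO and 4 by at least 1.5-fold, where 1.48% of all windows were, namely Irf5, Irf8, Cbfa2t3 and Sfpi1. Irf5, a transcription factor of the interferon response in myeloid and B cells, stood at 11.1 in the double KO, 15.3 in the Ezh2 KO, 24.3 in the Ezh1 KO and 25.4 in WT.

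RNA is a readout that the choice of windows did not use. Of the 265 genes with RNA values among windows at least 1.5-fold lower, 195 (73.6%) had higher RNA in the double KO, against 42.2% of all. The medians were 0.171 in the double KO and 0.105 in WT, low in both. Of the 42 that reached the RNA minimum of 1 in either library, 5 were at least 2-fold higher in RNA and 0 lower, where 0.958% of the 4906 genes compared were 2-fold higher. Among all windows at 20 to 50 in WT, 49.4% had higher RNA and 3.92% of 306 genes were 2-fold higher. At 10 to 30 in WT these shares were 42.2% and 1.35% of 2366 genes. The 5 were Plac8, H2-Ab1, Sykb, Ube2l6 and Csda, named after their values were seen. Windows of the B cell, class II and myeloid lists made up 14 of the 266 (5.26%). Without them, 182 of 251 (72.5%) had higher RNA in the double KO. With these lists included, the share at a WT RNA between 0.1 and 1 was 78.7% of 108 genes, against 43.7% of all 4735 windows in that class. Without the lists it was 77% of 100. At a WT RNA between 1 and 10, with the lists, it was 59.3% of 27, against 30.6% of all 4335. The summed B cell and myeloid marker RNA given above was likewise higher in the double KO, and its part in these shares was not tested.

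**Figure D5:**
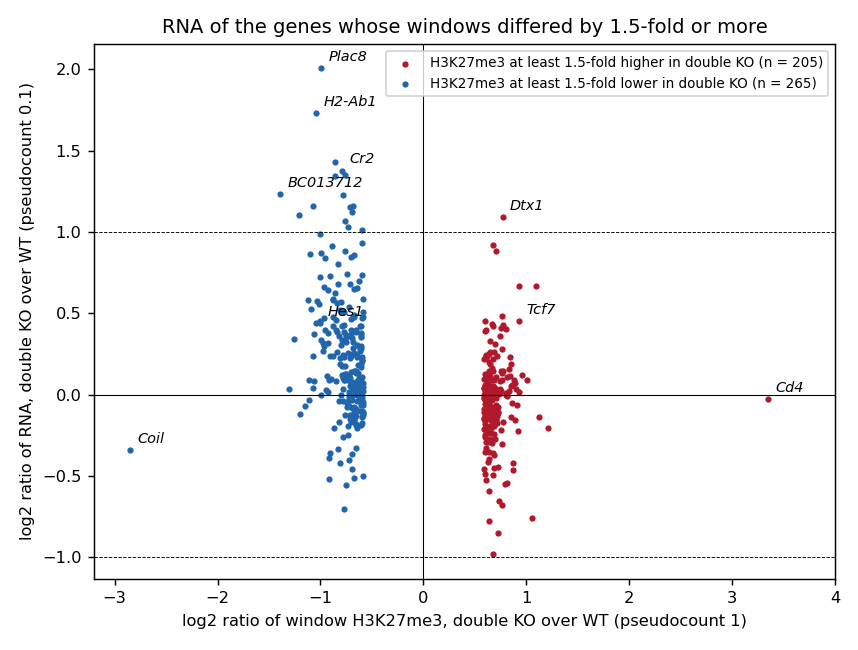
Log2 ratio of RNA (vertical axis, pseudocount 0.1) against log2 ratio of window H3K27me3 (horizontal axis, pseudocount 1), both double KO over WT, for genes whose windows were at least 1.5-fold higher (red, n = 205) or lower (blue, n = 265) in the double KO. Dashed lines mark 2-fold in RNA. Most blue points lie above 0 and the red points lie on both sides of it.

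On the other side, of 205 genes with 1.5-fold higher windows, 92 (44.9%) had higher RNA in the double KO. Of the 84 that reached the RNA minimum, 1 was at least 2-fold higher and 0 lower. That gene was Dtx1, with an RNA of 7.06 in the double KO and 3.26 in WT. A WT RNA of 1 or more was held by 83 of the 205 (40.5%), against 30 of the 265 with 1.5-fold lower windows (11.3%) and 26.4% of all. The share of genes transcribed in WT was thus above that of all windows among the 1.5-fold higher windows and below it among the lower ones. The 2 classes also differed in WT signal, with medians of 15.5 in the higher and 25.4 in the lower windows. Among all windows at 20 to 50 in WT the share was 5.85%, and at 10 to 30 it was 23.8%. The share among the lower windows lay between these 2.

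CpG content of the promoters was compared by direction. In the central 1000 bases, the median ratio of observed to expected CpG was 0.708 for the windows at least 1.5-fold lower and 0.530 for those at least 1.5-fold higher, against 0.630 for all windows compared. A ratio of 0.6 or more was found in 59.8% of the lower windows and 41.0% of the higher windows, against 53.2% of all. The T cell receptor list (median 0.322) and the B cell list (0.332) were both CpG-poor, yet differed in opposite directions, and the developmental transcription factors (0.723) were CpG-rich. The share of windows at least 1.5-fold lower was 1.22% at a CpG ratio under 0.3 and 2.04% at 0.8 or more. These shares are descriptions of 2 libraries.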

How the data were processed

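H3K27me3 ChIP-seq and RNA-seq libraries of naive CD4+ T cells were deposited as 1 table each. Reads were aligned to mm9 with Bowtie 0.12.7, and reads with at most 2 errors and a single location were kept, per the labels' protocols. Deposited ChIP tables hold, per the file headers, a coverage signal for each start site, namely the window's area and its peak (its highest bin). From the values, the area is coverage per M reads summed over bins of 25 bp, with reads of 151 bp. How the columns were computed, and whether input was subtracted, is not given in the sources used here. The deposited RNA signal is a mean over exons of peak coverage.

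Windows were joined by symbol. Log2 ratios of double KO over WT used a pseudocount of 1 (RNA 0.1, highest bin 0.01) and a minimum of 1 in the higher library. No test was possible with 1 library a side. Read equivalents, the area divided by the area of 1 read, gave Clopper-Pearson intervals of 95% for the ratio without pseudocount. PCR copies cannot be recognised, so these intervals cover counting error only. Sequence came from the NCBIM37 (mm9) reference, and 77.3% of the windows were centred within 1 bp of an annotated start. Overlapping windows were counted as 1 locus.

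The members and the 28 gene lists were chosen with earlier results of these data known. Genes named are Ezh1 and Ezh2, the 15 lowest and 15 highest windows past 2-fold, and any past 2-fold in the highest bin at a pseudocount of 1. Also named are 3 members per list with the largest ratio, the one highest in WT, and the 10 highest WT windows. Windows beside the 2-fold limit or with the largest difference between area and highest bin were named too. Other names, among them the remaining list members described, were chosen after their values were seen. Python 3.11.15, pandas 2.3.3, numpy 2.4.6 and scipy 1.17.1 were used, and the calls were tested on simulated data. Alternatives were other scalings, pseudocounts, minimums and fold limits, the highest bin, and another definition of marked windows.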

Additional observations from a re-analysis of the deposited data

How the results depend on the processing

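No paired analysis was possible because each genotype has 1 library. The counts of windows at least 2-fold lower and higher in the double KO, 25 and 6, became 40 and 13 with a pseudocount of 0.1, 3 and 1 with a pseudocount of 10, 55 and 2 with marked windows set equal, 36 and 4 with median of ratios, and 33 and 5 with background windows set equal. The counts were unchanged with a minimum of 5 or none. In the highest bin the counts were 1 and 1 with a pseudocount of 1, which is large beside those values, and 55 and 34 with 0.01, added after seeing the data, and 7 of the 25 and 3 of the 6 were among these. All 31 windows past 2-fold kept their side of WT under the 9 alternatives to the value, minimum, scaling and pseudocount. A pseudocount or a minimum cannot change the side, and scaling factors of at most 1.10 cannot reverse a 2-fold difference. Only the highest bin could have changed it. Limits of 1.5-fold and 4-fold gave 266 and 205, and 1 and 1. The marked median of 0.12 became 0.0461 in the highest bin, 0.0667 with median of ratios, -0.0192 with marked windows set equal and 0.0622 with marking at 2 times background. The median of all windows, 0.05, became 0 with median of ratios and -0.0809 with marked windows set equal. The 1.5-fold counts became 341 and 134 with median of ratios, 312 and 151 with background windows set equal, 508 and 61 with marked windows set equal and 64 and 29 with a pseudocount of 10. The 15 T cell receptor windows past 1.5-fold became 12 with median of ratios, 4 with marked windows set equal, 2 with a pseudocount of 10 and 11 in the highest bin at 0.01. The 9 B cell windows became 14 with marked windows set equal and 5 with a pseudocount of 10. List medians near 0 turned sign. Among those of at least 0.1 these were Th17 (-0.0177 and -0.0687) and chemokine receptor genes (-0.00499 and -0.055) in the highest bin with pseudocounts of 1 and 0.01, and Th17 (-0.000101), stromal (-0.0180), imprinted (-0.00542) and collagen genes (-0.00488) with marked windows set equal. Smaller medians that turned with marked windows set equal were those of the Notch (-0.06), PRC2 (-0.07), PRC1 (-0.14), CDK inhibitor (-0.14), Th1 (-0.12), cytotoxic (-0.07), memory (-0.12), erythroid (-0.05), SOCS and TNF receptor (-0.08) and ribosomal lists (-0.04). In the highest bin or with another scaling, the PRC2, PRC1, CDK inhibitor, Th1, memory and ribosomal medians also turned in at least 1 setting. The causes were not tested.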

Other observations

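Histone genes of the Hist1 clusters were noticed after their values were seen and are uncertain, since they are near-identical copies. Of 49 Hist1 windows at 17 separate loci, 37 were lower in the double KO, while 59.6% of all windows were higher. At least 1.5-fold lower were 8, at 4 loci, where 1.48% of all windows were. The medians were 9.23 in the double KO and 10.0 in WT. The highest signal of any window was at Sfi1, at 388.0 in the double KO, 410.0 in the Ezh2 KO, 376.4 in the Ezh1 KO and 380.7 in WT, without a 2-fold difference.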
